A study of Homo sapiens with 12 samples.

Results

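The genes described are the nuclear-encoded subunits of the mitochondrial respiratory chain, read complex by complex. They were taken as all genes whose symbol follows the naming of a subunit of complex I (NDUFA, NDUFB, NDUFC, NDUFS and NDUFV numbers), complex II (SDHA to SDHD), complex III (UQCR symbols and CYC1), complex IV (COX4 to COX8 symbols that continue with A, B or C) or complex V (ATP5F, ATP5M and ATP5P symbols), on probe sets with 1 symbol and without assembly factors or antisense symbols. The complex IV pattern leaves out COX4I1 and COX4I2. The rule found 76 of 19775 genes, on 145 of 54613 probe sets, of which 74 are protein-coding and 2 are pseudogenes. A tested value was available for 69 of them, which were 32 genes of complex I, 3 of complex II, 7 of complex III, 10 of complex IV and 17 of complex V. The other 7 lay below the filter on dim probe sets and are described with complex IV. The symbols NDUFB2-AS1, NDUFV2-AS1 and NDUFV1-DT, which name RNAs on the opposite strand or running the other way, were left out. Subunits that the rule did not reach on a probe set with 1 symbol are not members. SDHB and UQCRFS1 among them were not analysed here, while some others, such as COX4I1, NDUFAB1 and NDUFS8, are described apart below.

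All samples were MDA231 cells, a human triple-negative breast cancer line, measured on 12 arrays of total RNA. The groups, of 3 arrays each, were scramble cells given ETX (called ETX), cells with a pGIPZ lentiviral hairpin against CPT1 (shCPT-1), cells with such a hairpin against CPT2 (shCPT-2), and cells with the scramble hairpin alone (scramble). ETX is read here as etomoxir, an inhibitor of CPT1, since the labels use the abbreviation only. The dose and time of ETX on the cells of these arrays, the CPT1 isoform targeted, the number of hairpins and whether the cells were clones are stated in none of the sources used here. The labels number the arrays of a group without saying that they are separate cultures, so p-values measure only the spread between arrays, which may be technical.

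The respiratory chain passes electrons from NADH (complex I) and succinate (complex II) through ubiquinone, complex III and cytochrome c to oxygen at complex IV, and the proton gradient that complexes I, III and IV build drives ATP synthesis at complex V. Apart from the few core subunits made from mitochondrial DNA, the subunits are encoded in the nucleus, as are all those of complex II. Carnitine palmitoyltransferases, CPT1 on the outer and CPT2 on the inner mitochondrial membrane, bring long-chain fatty acids to beta-oxidation, whose electrons enter this chain. Factors of the NRF1, ETS (GABP) and YY1 families are known to bind promoters of many nuclear-encoded subunits.

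The deposited intensities, already normalized between arrays, had array medians of 74.9 to 77.2. The log2 difference of CPT1A was -1.59 ± 0.08 (SE) in shCPT-1 minus scramble, and that of CPT2 was -1.001 ± 0.10 in shCPT-2 minus scramble, while CPT1A had 1.11 in ETX and -0.23 in shCPT-2. Of 7 markers of MDA231 cells, VIM, CD44, EGFR, KRT18, KRT7 and AXL exceeded the array median on all 12 arrays and SPARC on 4. Of 6 genes usually low in this line, CDH1 and PGR did so on 0 arrays, FOXA1 on 5 and ESR1, ERBB2 and GATA3 on 12. Of the lists for other cell types, CD3E did so on 12 arrays and PTPRC, CD14 and LYZ of leukocytes on 0, and DES on 12 and ACTA1, MYH7, MB and CKM of striated muscle on 0. Of endothelium, PECAM1 and TEK did so on 12, KDR on 8 and CDH5 and VWF on 0, and of fibroblasts COL1A1 on 12, PDGFRB on 7, DCN on 2 and COL1A2, COL3A1 and LUM on 0. Some genes of these lists differed from scramble: 2 of 7 MDA231 markers fell in ETX, 4 in shCPT-1 and 4 in shCPT-2, and of 4 tested genes usually low in the line 1, 2 and 1 fell. Of 3 tested endothelium genes 2 fell in each knockdown and 1 rose with ETX, and of 3 tested fibroblast genes 1 fell in ETX and 2 in shCPT-2. Of all tested genes, 21.9% rose and 19.4% fell with ETX, 23.1% and 18% did so in shCPT-1, and 25.6% and 20.5% in shCPT-2. The lists are too short to compare with these shares. The summed log2 level of the endothelium list ran from 8.76 to 8.90 in ETX, 8.44 to 8.60 in shCPT-1 and 8.45 to 8.53 in shCPT-2, against 8.74 to 8.84 in scramble, and that of the fibroblast list from 8.92 to 9.005 in ETX, 9.07 to 9.12 in shCPT-1 and 8.96 to 9.005 in shCPT-2, against 9.10 to 9.195 in scramble. DES fell in shCPT-2, and CD3E passed no test. The part of other cells in the differences below was not tested. In RNA of a whole culture, fewer cells of a kind and less RNA per cell cannot be told apart. The actin control probe sets had a 3′ minus 5′ signal of 1.75 ± 0.06 log2 units in ETX, 1.73 ± 0.23 in shCPT-1 and 1.68 ± 0.23 in shCPT-2, against 2.07 ± 0.27 in scramble (SD, n = 3 each). A larger value of this control means relatively less signal from the 5′ end. Scramble 1 and 2 were at 2.25 and 2.20, and scramble 3 was at 1.76, among the arrays of the other groups. The array that correlated least with its own group was array 3 of ETX, array 1 of shCPT-1, array 2 of shCPT-2 and array 3 of scramble.

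Subunit genes moved in both directions in each comparison with scramble, and no complex moved as a whole. With ETX 11 of the 69 genes rose and 11 fell (limma, Benjamini-Hochberg adjusted p under 0.05 over all 12887 tested genes), where 21.9% of all tested genes rose and 19.4% fell. The members' shares were 15.9% each way. In shCPT-1 18 rose and 11 fell, which is 26.1% and 15.9% of the members against 23.1% and 18% of all tested genes. In shCPT-2 15 rose and 19 fell, which is 21.7% and 27.5% of the members against 25.6% and 20.5% of all tested genes. These shares lie near those of all genes. The 3 comparisons use the same scramble arrays, so their calls are not independent of each other.

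The median log2 difference over the members was -0.01 in ETX, 0.04 in shCPT-1 and -0.02 in shCPT-2, beside -0.01, 0.01 and 0.00 over all tested genes. The median size of the difference, whatever its sign, was 0.09, 0.14 and 0.13 in the members, beside 0.14, 0.14 and 0.15 in all tested genes. The groups did not overlap in 33 members for ETX, 36 for shCPT-1 and 35 for shCPT-2, where 49.5%, 51.1% and 52.4% of all tested genes did not. Over the 4 groups together, the limma F test called 46 members (66.7%), where it called 69.8% of all tested genes. Those 46 were 25 of 32 genes of complex I, all 3 of complex II, 4 of 7 of complex III, 8 of 10 of complex IV and 6 of 17 of complex V. In 23 members no comparison with scramble passed the test, 19 were called once, 15 in 2 comparisons and 12 in all 3.

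**Figure D1:**
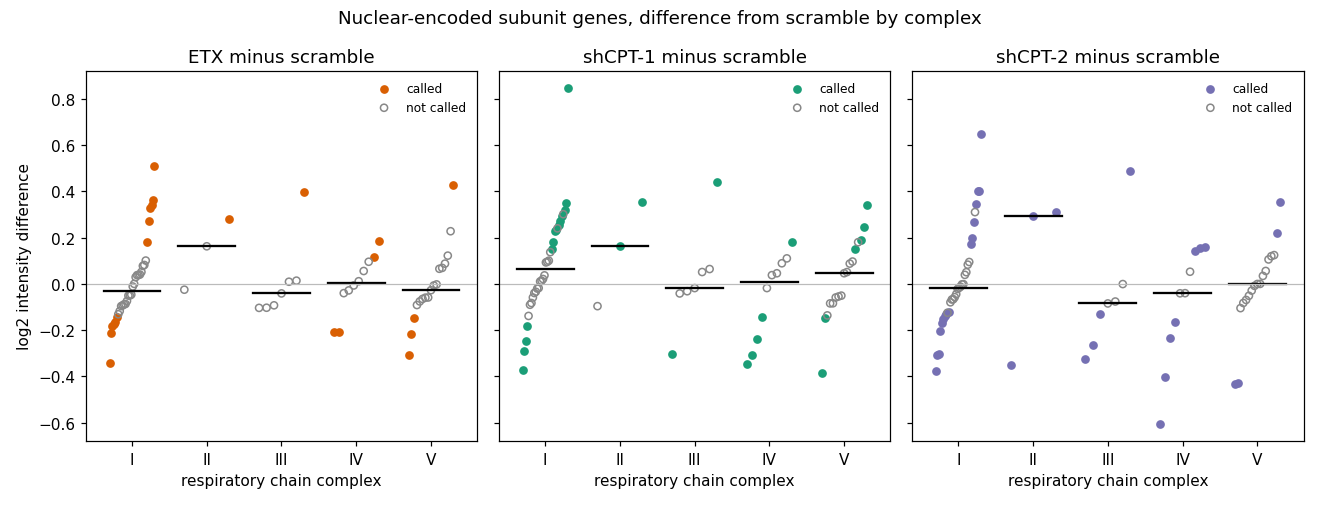
Log2 intensity difference from scramble for each of the 69 subunit genes, by complex, in ETX, shCPT-1 and shCPT-2; filled points passed the limma test, open points did not, and bars are complex medians. Points lie on both sides of 0 in every complex and every panel, and NDUFB5 is the highest point of complex I, at 0.51, 0.85 and 0.65.

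In complex I, 6 genes rose and 6 fell with ETX, 10 rose and 4 fell in shCPT-1, and 7 rose and 9 fell in shCPT-2. The complex median log2 difference was -0.03, 0.06 and -0.02. NDUFV1, the core subunit that binds NADH and FMN, measured 10.54, 10.55 and 10.61 log2 units in ETX, 10.25, 10.08 and 10.15 in shCPT-1 and 10.20, 10.19 and 10.28 in shCPT-2, against 10.48, 10.49 and 10.62 in scramble. Every array of both knockdowns was below every array of ETX and of scramble. NDUFV1 was 1.30-fold lower in shCPT-1 (log2 -0.37 ± 0.06 SE, limma adjusted p = 0.000214) and 1.24-fold lower in shCPT-2 (-0.31 ± 0.06, adjusted p = 0.000737), with 0.04 ± 0.06 in ETX (adjusted p = 0.624). Its second, dim probe set gave -0.35 in ETX, -0.07 in shCPT-1 and -0.17 in shCPT-2, and only the ETX value passed the test over probe sets.

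NDUFV2, the iron-sulfur partner of NDUFV1 in the NADH-oxidizing module, moved the other way in the knockdowns. It measured 11.88, 11.91 and 12.04 in ETX, 12.31, 12.33 and 12.30 in shCPT-1 and 12.18, 12.31 and 12.15 in shCPT-2, against 12.03, 12.08 and 12.01 in scramble. The arrays of both knockdowns were all above those of scramble, and the differences were 0.27 ± 0.06 in shCPT-1 (adjusted p = 0.00176) and 0.17 ± 0.06 in shCPT-2 (adjusted p = 0.022), with -0.10 in ETX (0.182). The shCPT-2 call of NDUFV2 ended without scramble 1, scramble 3 or array 2 of shCPT-2 (up to 0.0838). NDUFV3, an accessory subunit of the same module, fell by 0.29 ± 0.06 in shCPT-1 (adjusted p = 0.00243), with -0.09 in ETX and 0.04 in shCPT-2. A dimmer NDUFV3 probe set had -0.08, -0.09 and -0.20. The large iron-sulfur subunit NDUFS1 passed no test, with 0.08 in ETX, 0.02 in shCPT-1 and 0.05 in shCPT-2 on its brightest probe set. Of the 4 NDUFS1 probe sets kept, 2 dim ones were lower in shCPT-2 (-0.49 and -0.23). NDUFS7, which holds the last iron-sulfur cluster before ubiquinone, fell by 0.21 ± 0.06 in ETX (adjusted p = 0.00932) and by 0.20 ± 0.06 in shCPT-2 (0.00985), with -0.08 in shCPT-1 (0.26).

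Among the accessory subunits of the membrane arm, NDUFB5 had the largest difference of all members. It measured 10.33, 10.48 and 10.45 in ETX, 10.86, 10.77 and 10.65 in shCPT-1 and 10.63, 10.51 and 10.54 in shCPT-2, against 9.71, 9.80 and 10.22 in scramble. No array of the 3 altered groups was as low as any scramble array, and scramble 3 lay nearest to them. NDUFB5 was 1.42-fold higher in ETX (0.51 ± 0.11, adjusted p = 0.0032), 1.80-fold higher in shCPT-1 (0.85 ± 0.11, 6.32e-05) and 1.57-fold higher in shCPT-2 (0.65 ± 0.11, 0.000396). With the actin signal as a covariate these were 0.35, 0.68 and 0.46, and each passed the test. NDUFB10 was low in ETX, at 10.63, 10.70 and 10.77, and in shCPT-2, at 10.62, 10.73 and 10.65, while it measured 11.05, 11.01 and 10.96 in shCPT-1, against 11.06, 10.999 and 11.07 in scramble. Its difference was -0.34 ± 0.05 in ETX (adjusted p = 0.000302) and -0.38 ± 0.05 in shCPT-2 (6.88e-05), with -0.03 ± 0.05 in shCPT-1 (0.629), and its second probe set gave -0.37, -0.32 and -0.09 in the same order.

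Other accessory subunits of complex I that rose in all 3 comparisons were NDUFA10 (0.18 in ETX, 0.32 in shCPT-1, 0.40 in shCPT-2), NDUFB3 (0.34, 0.23, 0.40) and NDUFB6 (0.27, 0.35, 0.20). The second, dim NDUFA10 probe set kept had -0.06, -0.09 and -0.06, none called. NDUFB8 fell in all 3, by 0.17, 0.25 and 0.17. Of its 3 kept probe sets, 1, 3 and 2 were called lower over probe sets, and the dimmest had 0.02 in shCPT-2. NDUFB2 rose in ETX (0.36) and shCPT-2 (0.34) and had 0.24 in shCPT-1 (adjusted p = 0.0885). NDUFA7 fell in shCPT-2 (-0.30, adjusted p = 0.00414), and NDUFA3 fell in ETX (-0.18). Several of these calls ended when 1 array was left out, for NDUFA10 in ETX also an array of a group outside the comparison. The ETX calls ended, at an adjusted p of up to 0.193, without any 1 of several arrays for NDUFA10, among them scramble 1 and scramble 2, without scramble 1 or 2 for NDUFB2 (0.0725), without scramble 1 or ETX 1 for NDUFA3 (0.0739) and without scramble 1, ETX 1 or ETX 2 for NDUFB8 (0.0684). The shCPT-1 call of NDUFB3 ended without scramble 1, scramble 2 or shCPT-1 array 1 (up to 0.134). In shCPT-2 the calls of NDUFB2 (up to 0.0786) and NDUFB6 (0.141) ended without scramble 1, scramble 2 or array 1 or 3 of shCPT-2, and that of NDUFB8 (0.0632) without scramble 1 or array 1 or 3 of shCPT-2.

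**Figure D2:**
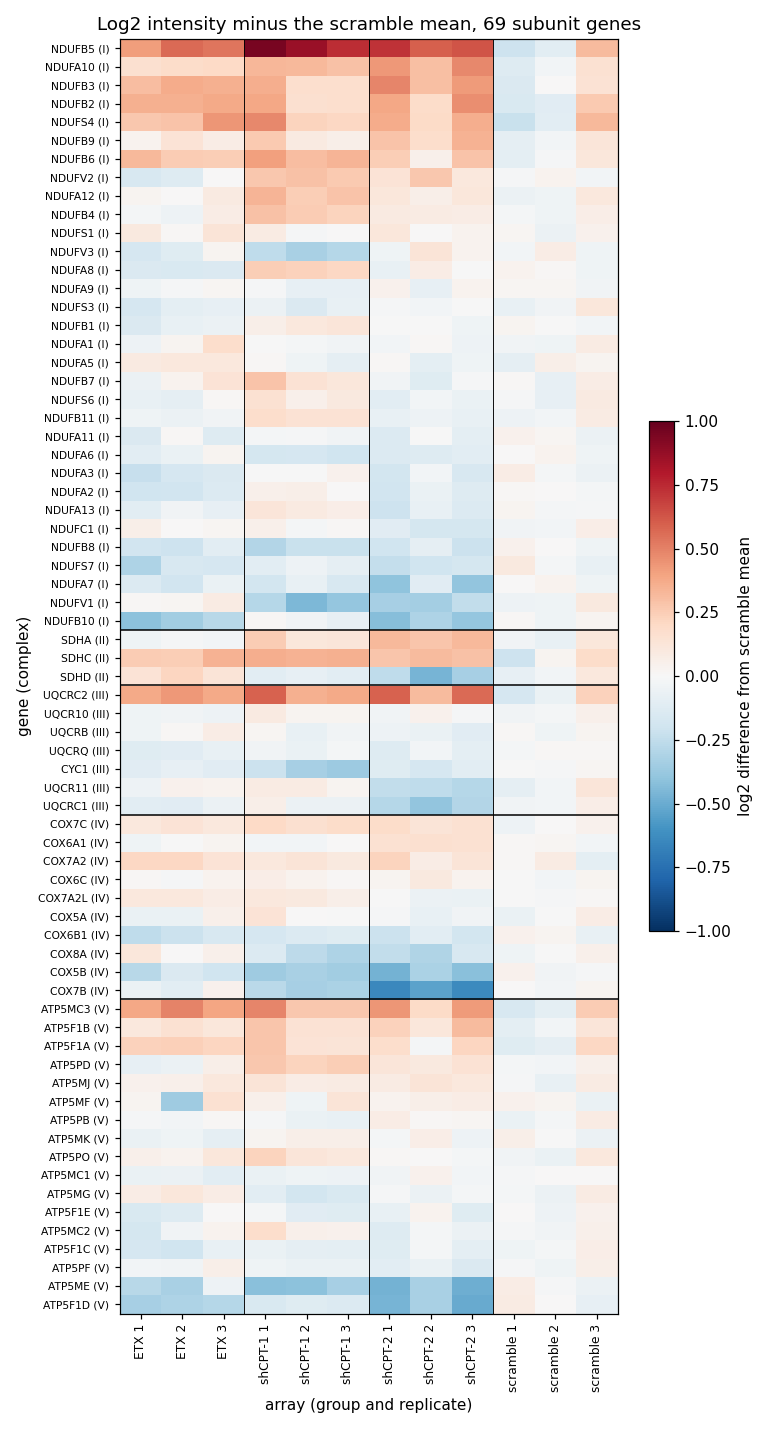
Log2 intensity of each subunit gene (rows, by complex) on each of the 12 arrays (columns, by group) minus the scramble mean of that gene; red is above and blue below the scramble mean. NDUFB5 and UQCRC2 are red on all 9 arrays of the altered groups, COX5B is blue on those 9, and scramble 3 is the reddest scramble array for NDUFB5, UQCRC2 and ATP5MC3.

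Complex II is succinate dehydrogenase, which also belongs to the citric acid cycle. Its 3 tested genes did not move together. SDHA, the flavoprotein that oxidizes succinate, measured 11.22, 11.25 and 11.23 in ETX, 11.51, 11.37 and 11.38 in shCPT-1 and 11.59, 11.53 and 11.58 in shCPT-2, against 11.22, 11.18 and 11.37 in scramble. All shCPT-2 arrays were above all others, whereas the shCPT-1 arrays overlapped scramble 3. SDHA was 1.24-fold higher in shCPT-2 (0.31 ± 0.06, adjusted p = 0.00072) and 1.12-fold higher in shCPT-1 (0.16 ± 0.06, 0.037), with -0.03 in ETX (0.753). The shCPT-1 call ended without scramble 1, scramble 2, array 1 or 3 of shCPT-1 or array 3 of shCPT-2 (adjusted p up to 0.144). SDHA rests on a probe set of the kind that may bind related transcripts, and a further probe set annotated to SDHA and 3 SDHA pseudogenes gave -0.32 in ETX, 0.07 in shCPT-1 and 0.09 in shCPT-2, so the SDHA values are uncertain.

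SDHD, which with SDHC anchors the enzyme in the inner membrane, measured 11.54, 11.62 and 11.54 in ETX, 11.30, 11.33 and 11.30 in shCPT-1 and 11.15, 10.94 and 11.07 in shCPT-2, against 11.32, 11.38 and 11.51 in scramble. The shCPT-2 arrays were below all others and the ETX arrays above all others. SDHD was 1.28-fold lower in shCPT-2 (-0.35 ± 0.06, adjusted p = 0.000531), with 0.16 ± 0.06 in ETX (0.0516) and -0.10 ± 0.06 in shCPT-1 (0.238). SDHC rose in all 3 comparisons, by 0.28 ± 0.08 in ETX (adjusted p = 0.0118), 0.35 ± 0.08 in shCPT-1 (0.00278) and 0.30 ± 0.08 in shCPT-2 (0.00713). All 7 SDHC probe sets kept had a positive difference in each comparison, and 6, 4 and 3 of them passed the test over probe sets. The brightest SDHC probe set is of the kind that may bind related transcripts, as are those of COX7C, ATP5F1C and ATP5MG. With the actin covariate SDHC had 0.21 in ETX (adjusted p = 0.088), 0.28 in shCPT-1 (0.0274) and 0.20 in shCPT-2 (0.0948).

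In complex III, 1 of 7 genes rose in each comparison, and it was UQCRC2 each time. The genes that fell were 0 with ETX by limma (2 at an unadjusted p under 0.05), CYC1 in shCPT-1, and CYC1, UQCR11 and UQCRC1 in shCPT-2. UQCRC1 and UQCRC2 are the paired core proteins of the complex, and they moved apart in shCPT-2. UQCRC1 measured 11.58, 11.57 and 11.63 in ETX, 11.74, 11.63 and 11.63 in shCPT-1 and 11.40, 11.29 and 11.39 in shCPT-2, against 11.65, 11.66 and 11.75 in scramble. The shCPT-2 arrays were below all others, and UQCRC1 was 1.25-fold lower there (-0.32 ± 0.05, adjusted p = 0.000213), with -0.09 in ETX (0.161) and -0.02 in shCPT-1 (0.805). UQCRC2 measured 11.13, 11.18 and 11.13 in ETX, 11.34, 11.10 and 11.12 in shCPT-1 and 11.34, 11.06 and 11.32 in shCPT-2, against 10.58, 10.68 and 10.98 in scramble.

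No array of the altered groups was as low in UQCRC2 as any scramble array. Its difference was 0.40 ± 0.10 in ETX (adjusted p = 0.00844), 0.44 ± 0.10 in shCPT-1 (0.00436) and 0.49 ± 0.10 in shCPT-2 (0.00176), and both its kept probe sets rose in each comparison. With the actin covariate the UQCRC2 differences were 0.20, 0.23 and 0.25, and each passed the test. CYC1, the haem-bearing cytochrome c1 that hands electrons to cytochrome c, measured 11.74, 11.77 and 11.74 in ETX, 11.64, 11.52 and 11.49 in shCPT-1 and 11.73, 11.69 and 11.75 in shCPT-2, against 11.85, 11.84 and 11.87 in scramble. The scramble arrays were the highest of all, and the shCPT-1 arrays the lowest. CYC1 fell by 0.30 ± 0.05 in shCPT-1 (adjusted p = 0.000203) and by 0.13 ± 0.05 in shCPT-2 (0.0328), with -0.10 ± 0.05 in ETX (0.0867). The shCPT-2 call of CYC1 ended without any 1 array of scramble or shCPT-2 (adjusted p up to 0.0886). The small subunit UQCR11 fell by 0.26 ± 0.05 in shCPT-2 (adjusted p = 0.00176), while its second, dimmer probe set had 0.05.

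In complex IV, cytochrome c oxidase, 2 of 10 genes rose and 2 fell with ETX, 1 rose and 4 fell in shCPT-1, and 3 rose and 4 fell in shCPT-2. COX7B, a small membrane subunit, had the largest fall of all members. It measured 12.80, 12.75 and 12.90 in ETX, 12.58, 12.53 and 12.54 in shCPT-1 and 12.21, 12.32 and 12.22 in shCPT-2, against 12.86, 12.83 and 12.88 in scramble. The shCPT-2 arrays were the lowest, the shCPT-1 arrays lay between, and ETX overlapped scramble. COX7B was 1.52-fold lower in shCPT-2 (-0.61 ± 0.05, adjusted p = 1.19e-06) and 1.24-fold lower in shCPT-1 (-0.31 ± 0.05, 0.000394), with -0.04 ± 0.05 in ETX (0.553). Its second, dim probe set gave -0.69 in shCPT-2 and -0.10 in shCPT-1, and only the shCPT-2 value passed the test over probe sets.

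COX5B, a subunit on the matrix side, measured 11.92, 12.04 and 11.99 in ETX, 11.83, 11.86 and 11.84 in shCPT-1 and 11.72, 11.88 and 11.77 in shCPT-2, against 12.23, 12.16 and 12.18 in scramble. All 9 altered arrays were below all scramble arrays, and scramble 3 did not stand apart. The differences were -0.21 ± 0.05 in ETX (adjusted p = 0.00676), -0.35 ± 0.05 in shCPT-1 (0.00017) and -0.40 ± 0.05 in shCPT-2 (3.92e-05), and all 4 COX5B probe sets kept had a difference below 0 in each comparison, of which 4, 3 and 3 passed the test over probe sets. All but the dimmest of them are of the kind that may bind several transcripts. The dimmest had -0.30 in ETX, -0.19 in shCPT-1 and -0.25 in shCPT-2, and only its ETX value passed. COX5A, the neighbour of COX5B in the complex, passed no test, with -0.03, 0.05 and -0.04. COX8A fell in both knockdowns, by 0.24 ± 0.06 in shCPT-1 (adjusted p = 0.00489) and 0.23 ± 0.06 in shCPT-2 (0.00463), with 0.06 in ETX (0.457). COX6B1, on the side of the intermembrane space, fell in all 3, by 0.21, 0.14 and 0.17.

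The complex IV genes that rose did so by little. COX7C was 0.11 ± 0.04 higher in ETX (adjusted p = 0.0396), 0.18 ± 0.04 in shCPT-1 (0.00346) and 0.16 ± 0.04 in shCPT-2 (0.00692). COX6A1 measured 13.51, 13.52 and 13.51 in shCPT-2, against 13.37, 13.38 and 13.33 in scramble, a difference of 0.15 ± 0.04 (adjusted p = 0.00569). COX7A2 rose with ETX (0.18) and in shCPT-2 (0.14). Calls that ended without a single array were those of COX7C in ETX (8 arrays in turn, among them each ETX array; adjusted p up to 0.144), COX7A2 in ETX (scramble 3, ETX 1 or ETX 2; up to 0.0629) and in shCPT-2 (10 arrays in turn; up to 0.192). Those of COX6B1 ended in shCPT-1 without scramble 1, scramble 2 or any array of shCPT-1 (up to 0.113) and in shCPT-2 without scramble 1, scramble 2 or array 1 of shCPT-2 (up to 0.0565). The tissue-restricted forms were dim. COX6A2 and COX7A1, the forms of heart and skeletal muscle, and COX7B2 and COX8C exceeded the array median on 0 of 12 arrays and COX6B2, the testis form, on 2, so none had a tested value. The pseudogenes ATP5MC2P1 and COX6A1P1 did so on 1 and 0 arrays.

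**Figure D3:**
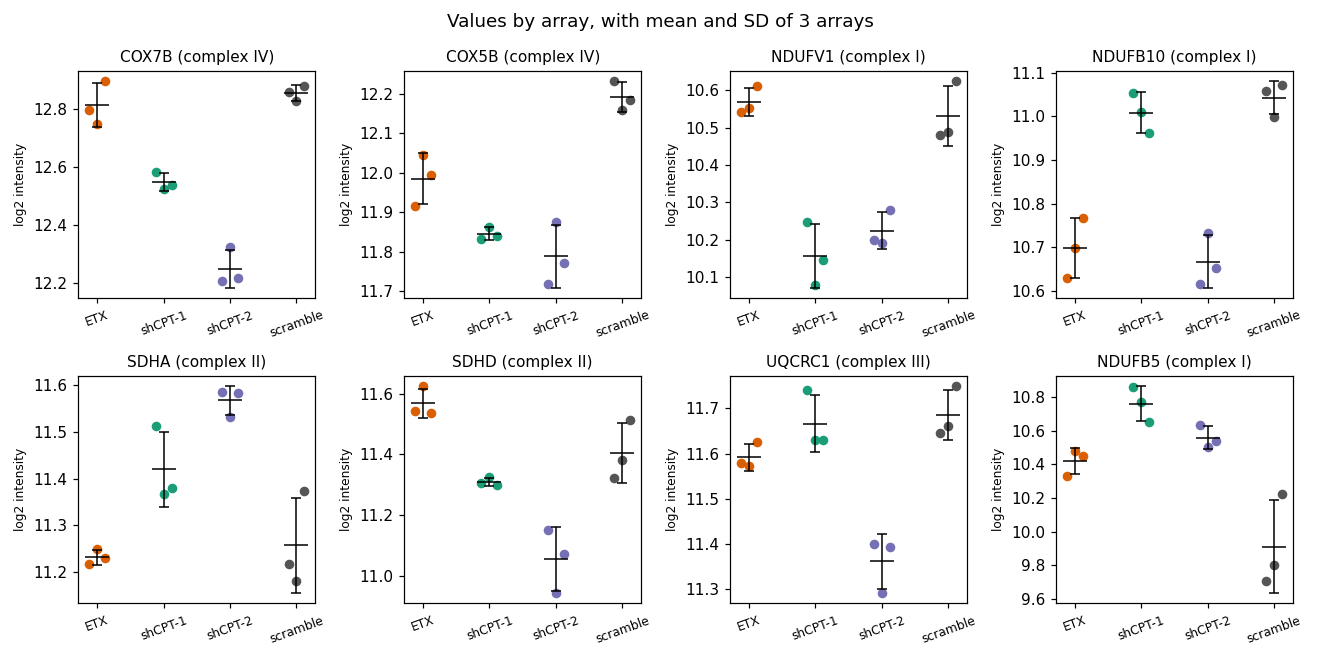
Log2 intensity by array for COX7B, COX5B, NDUFV1, NDUFB10, SDHA, SDHD, UQCRC1 and NDUFB5, in ETX, shCPT-1, shCPT-2 and scramble; points are arrays, long bars the mean and short bars the SD of 3 arrays. COX7B steps down to a mean of 12.55 in shCPT-1 and 12.25 in shCPT-2 against 12.86 in scramble, NDUFB10 is low in ETX and shCPT-2, and each panel has its own scale.

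In complex V, the ATP synthase, 1 of 17 genes rose and 3 fell with ETX, 4 rose and 2 fell in shCPT-1, and 2 rose and 2 fell in shCPT-2. Of the catalytic head, the alpha subunit ATP5F1A passed no test, with 0.23 in ETX (adjusted p = 0.0509), 0.18 in shCPT-1 (0.115) and 0.12 in shCPT-2 (0.263). Its partner ATP5F1B, the beta subunit, rose by 0.19 in shCPT-1 (adjusted p = 0.039) and 0.22 in shCPT-2 (0.0179). Both calls ended with the actin covariate, at 0.06 (adjusted p = 0.345) and 0.07 (0.286), and without scramble 1 or scramble 2 (up to 0.153 and 0.0851). The shCPT-1 call also ended without ETX 1, any array of shCPT-1 or array 1 of shCPT-2, and the shCPT-2 call without array 1 or 3 of shCPT-2. ATP5F1D, the delta subunit of the central stalk, measured 10.19, 10.21 and 10.23 in ETX, 10.36, 10.39 and 10.38 in shCPT-1 and 10.05, 10.19 and 10.01 in shCPT-2, against 10.60, 10.52 and 10.43 in scramble.

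All altered arrays were below all scramble arrays in ATP5F1D. It fell by 0.31 ± 0.06 in ETX (adjusted p = 0.00109) and by 0.43 ± 0.06 in shCPT-2 (4.4e-05), with -0.14 ± 0.06 in shCPT-1 (0.0671). A second ATP5F1D probe set fell in all 3, by 0.40, 0.28 and 0.41. The gamma subunit ATP5F1C fell by 0.15 in ETX (adjusted p = 0.03), a call that ended without scramble 2, scramble 3, ETX 1 or ETX 2 (up to 0.114). ATP5ME, the e subunit of the membrane part, fell in all 3 comparisons, by 0.22 ± 0.07 in ETX (adjusted p = 0.033), 0.39 ± 0.07 in shCPT-1 (0.00117) and 0.43 ± 0.07 in shCPT-2 (0.000428), and its second probe set fell likewise, by 0.23, 0.36 and 0.38. Both ATP5ME probe sets are of the kind that may bind related transcripts. The ETX arrays overlapped scramble, and that call ended without scramble 1, scramble 2, ETX 1 or ETX 2 (up to 0.133). ATP5MC3, a gene for the c-ring protein through which protons pass, measured 12.36, 12.47 and 12.37 in ETX, 12.46, 12.25 and 12.24 in shCPT-1 and 12.42, 12.16 and 12.40 in shCPT-2, against 11.81, 11.88 and 12.23 in scramble.

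Scramble 3 lay within the shCPT-2 arrays in ATP5MC3, and the other scramble arrays were below all altered arrays. The differences of ATP5MC3 were 0.43 ± 0.11 in ETX (adjusted p = 0.0069), 0.34 ± 0.11 in shCPT-1 (0.0201) and 0.35 ± 0.11 in shCPT-2 (0.015). Both knockdown calls ended without scramble 1, scramble 2 or array 1 of the knockdown, and for shCPT-2 also array 3 (up to 0.0895 and 0.0689). Another ATP5MC3 probe set, about as bright, gave 0.28 in ETX, 0.17 in shCPT-1 and 0.20 in shCPT-2. Only its ETX value passed the test over probe sets. A further, dim probe set of ATP5MC3 was lower in shCPT-2, by 0.53. ATP5MC3 was the only member with probe sets called opposite ways in a comparison with scramble, and the other comparisons were not read by probe set. ATP5PD, of the stalk that holds the head in place, rose in shCPT-1 by 0.25 ± 0.05 (adjusted p = 0.00124), with 0.12 in shCPT-2 (0.0535). ATP5MG, the g subunit, fell by 0.15 ± 0.05 in shCPT-1 (adjusted p = 0.0234), a call that ended without scramble 3 or array 2 or 3 of shCPT-1 (up to 0.0905). ATP5MF rests on a dim probe set at a mean of 6.34, and its brighter probe set, which also names ARMC2-AS1, passed no test.

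Of the 12 members called in all 3 comparisons, 8 rose in each (ATP5MC3, COX7C, NDUFA10, NDUFB3, NDUFB5, NDUFB6, SDHC and UQCRC2), which is 11.6% of the members where 7.15% of all tested genes did so. The other 4 fell in each (ATP5ME, COX5B, COX6B1 and NDUFB8), which is 5.8% where 4.24% of all tested genes did so. ATP5F1B, NDUFV2 and SDHA rose in both knockdowns and were not called with ETX (4.35% against 6.22%), and COX7B, COX8A, CYC1, NDUFA6 and NDUFV1 fell in both knockdowns and were not called with ETX (7.25% against 5.08%). No member was called in opposite directions by the knockdowns (2.78% of all tested genes), rose in both knockdowns and fell with ETX (0.854%), or fell in both knockdowns and rose with ETX (1.51%), and at an unadjusted p under 0.05 in limma these counts were also 0. COX4I1, a complex IV subunit that the naming rule leaves out, did rise in both knockdowns and fall with ETX, as described below. The promoters of the 4 genes that fell in each comparison are shown with that of UQCRC2, which rose in each, from RefSeq on GRCh38.p14, each 300 bases around the gene's start (most of them before it), on the gene's strand. They are ATP5ME at chr4:674227-674526 on the minus strand, COX5B at chr2:97645812-97646111 and COX6B1 at chr19:35648073-35648372 on the plus strand, NDUFB8 at chr10:100529874-100530173 on the minus strand and UQCRC2 at chr16:21953111-21953410 on the plus strand. Capitals mark matches, on either strand, to GCATGCGC (as in NRF1 sites), CCGGAAG (as in ETS sites such as those of GABP) or AAGATGGC (as in YY1 sites).
ATP5ME: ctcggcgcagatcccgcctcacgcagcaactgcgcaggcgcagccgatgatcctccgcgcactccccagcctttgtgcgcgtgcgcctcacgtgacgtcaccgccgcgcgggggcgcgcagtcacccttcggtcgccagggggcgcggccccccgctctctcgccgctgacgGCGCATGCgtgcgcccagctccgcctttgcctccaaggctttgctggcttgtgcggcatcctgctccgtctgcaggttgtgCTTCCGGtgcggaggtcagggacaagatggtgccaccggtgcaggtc
COX5B: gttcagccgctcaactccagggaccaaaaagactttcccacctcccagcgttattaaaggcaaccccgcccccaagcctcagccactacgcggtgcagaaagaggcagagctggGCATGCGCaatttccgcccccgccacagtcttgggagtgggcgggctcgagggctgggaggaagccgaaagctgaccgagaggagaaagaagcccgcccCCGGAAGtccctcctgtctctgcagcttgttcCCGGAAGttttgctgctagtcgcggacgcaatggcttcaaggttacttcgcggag
COX6B1: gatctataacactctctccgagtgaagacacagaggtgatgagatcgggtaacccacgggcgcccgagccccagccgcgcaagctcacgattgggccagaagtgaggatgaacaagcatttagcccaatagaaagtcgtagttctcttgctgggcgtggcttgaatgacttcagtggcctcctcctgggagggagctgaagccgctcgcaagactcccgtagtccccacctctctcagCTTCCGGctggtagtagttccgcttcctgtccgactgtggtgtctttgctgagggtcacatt
NDUFB8: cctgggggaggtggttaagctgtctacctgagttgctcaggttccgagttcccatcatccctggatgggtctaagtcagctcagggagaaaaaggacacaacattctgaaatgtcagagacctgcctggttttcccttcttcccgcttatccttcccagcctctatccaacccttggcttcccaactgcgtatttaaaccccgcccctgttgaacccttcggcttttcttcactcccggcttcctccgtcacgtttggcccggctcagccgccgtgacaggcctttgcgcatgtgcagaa
UQCRC2: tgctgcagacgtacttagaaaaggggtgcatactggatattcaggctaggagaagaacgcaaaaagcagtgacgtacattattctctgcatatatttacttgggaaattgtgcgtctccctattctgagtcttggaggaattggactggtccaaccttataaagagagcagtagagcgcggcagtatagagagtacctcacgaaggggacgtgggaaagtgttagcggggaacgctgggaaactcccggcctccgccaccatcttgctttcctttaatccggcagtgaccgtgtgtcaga

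COX5B held an NRF1-type match and a pair of ETS-type matches, ATP5ME 1 of each kind and COX6B1 an ETS-type match, while the windows of NDUFB8 and UQCRC2 held none of these letters. A promoter sequence was matched for 59 of the 69 members. At least 1 of the 3 motifs was in 52.5% of these, against 15.6% of 27305 promoters of the same length. Those 27305 were not filtered by kind of gene or by expression, whereas the members are protein-coding genes above the filter. By motif, the shares were 20.3% against 3.27% for GCATGCGC, 28.8% against 10.7% for CCGGAAG and 16.9% against 3.03% for AAGATGGC. Among the genes that rose in all 3 comparisons, 5 had a promoter sequence and 0 of them held a match, and among those that fell 3 of 4 did. These counts describe letters in a window, with too few genes to compare.

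The actin signal moved with several members. In NDUFB5, UQCRC2, ATP5MC3 and NDUFB2, scramble 1 and 2 had both the highest actin signal and the lowest values, and scramble 3, whose actin signal was like that of the other groups, lay nearer to them. With the actin signal as a covariate, 6 members rose and 8 fell in ETX, 12 rose and 11 fell in shCPT-1, and 7 rose and 12 fell in shCPT-2, beside 16.8% and 12.9%, 20.5% and 14.4%, and 22.9% and 16.9% of all tested genes. The genes that rose in all 3 comparisons were then NDUFB5 and UQCRC2, and those that fell in all 3 were COX5B and CYC1. COX7B kept -0.30 in shCPT-1 (adjusted p = 0.00226) and -0.61 in shCPT-2 (2.45e-05), and NDUFV1 had -0.47 (2.3e-05) and -0.415 (6.48e-05). NDUFB10, SDHD and UQCRC1 in shCPT-2 also passed with the covariate, at -0.38, -0.43 and -0.41. In ETX 11 calls ended with the covariate, those of SDHC, NDUFB2, NDUFS4, NDUFA10 and COX7C, which had risen, and NDUFA3, NDUFA8, NDUFB8, NDUFS7, ATP5ME and ATP5F1C, which had fallen, while CYC1, NDUFS3 and UQCRC1 became called lower. In shCPT-1 8 ended, those of ATP5F1B, ATP5MC3, ATP5PO, NDUFB3, NDUFB7, NDUFB11 and SDHA, which had risen, and COX6B1, which had fallen, while NDUFB1 and NDUFS3 became called. In shCPT-2 15 ended, those of ATP5F1B, ATP5MC3, COX7A2, COX7C, NDUFB2, NDUFB6, NDUFB9 and SDHC, which had risen, and COX6B1, NDUFA2, NDUFA6, NDUFA7, NDUFA13, NDUFB8 and NDUFS7, which had fallen. A lost call was not always a smaller difference. ATP5F1C in ETX had -0.16 with the covariate and -0.15 without it (adjusted p = 0.0525 and 0.03), and COX7A2 in shCPT-2 had 0.18 and 0.14 (0.0605 and 0.0497). By contrast, NDUFB6 in shCPT-2 had 0.05 with the covariate and 0.20 without it (adjusted p = 0.52 and 0.0343), and NDUFS4 in ETX had 0.10 and 0.33 (0.405 and 0.0482). The difference shrank by more than 2-fold in 3 of the lost calls in ETX, 4 in shCPT-1 and 5 in shCPT-2. Without the array of each group that correlated least with its group, 17 members rose and 18 fell in ETX, 23 rose and 14 fell in shCPT-1, and 21 rose and 21 fell in shCPT-2. Of all tested genes, 26.1% and 26.8%, 27.6% and 21.2%, and 29.7% and 26.1% did so in that fit. All 12 genes named above as called in all 3 comparisons were called in all 3 there too. That fit leaves out arrays for being unlike their group, scramble 3 among them, which tends to lower the spread. The kept calls are therefore no test of how stable these differences are. The part of RNA quality in these differences was not tested further.

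**Figure D4:**
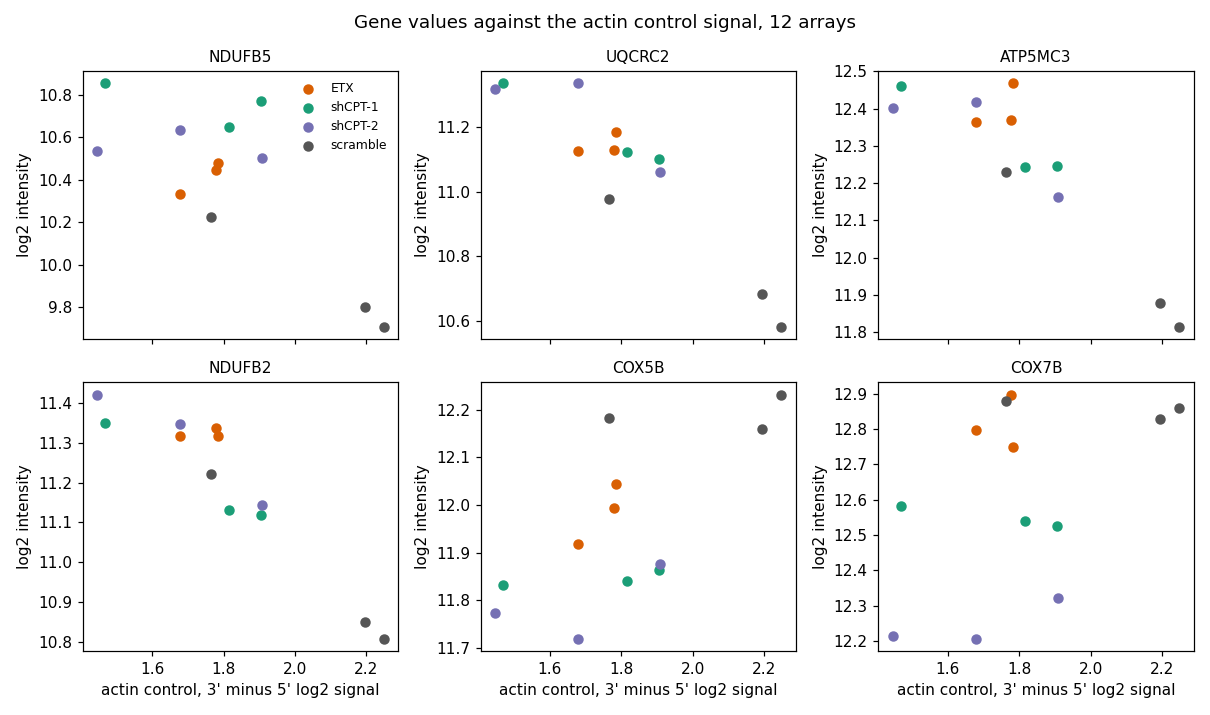
Log2 intensity of 6 subunit genes on each of the 12 arrays (vertical axis) against the 3′ minus 5′ log2 signal of the actin control probe sets on the same array (horizontal axis), coloured by group. Scramble 1 and 2 lie at the far right, at 2.25 and 2.20, and low in NDUFB5, UQCRC2, ATP5MC3 and NDUFB2, whereas in COX5B and COX7B scramble 3 lies beside the other scramble arrays.

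Against each other the knockdowns differed mostly one way. In shCPT-2 relative to shCPT-1, 3 members were higher and 17 lower, which is 4.35% and 24.6% of the members, where 17.7% and 17.8% of all tested genes were. Complex I held 10 of the 17, and its median difference was -0.11, beside 0.00 over all tested genes. The largest were NDUFB10 (-0.34 ± 0.05, adjusted p = 0.00023), UQCR11 (-0.33 ± 0.05, 0.00055), UQCRC1 (-0.31 ± 0.05, 0.000498), COX7B (-0.30 ± 0.05, 0.00053) and ATP5F1D (-0.30 ± 0.06, 0.00117). NDUFA8, a membrane-arm accessory subunit, measured 9.86, 10.004 and 9.93 in shCPT-2, against 10.18, 10.16 and 10.14 in shCPT-1, and the groups did not overlap. Its difference was -0.23 ± 0.05 (adjusted p = 0.00171), like those of NDUFA13 (-0.23), NDUFB7 (-0.24) and NDUFB11 (-0.22). The 3 that were higher in shCPT-2 were NDUFV3 (0.33 ± 0.06, adjusted p = 0.00118), CYC1 (0.17 ± 0.05, 0.0104) and COX6A1 (0.17 ± 0.04, 0.00389). The dimmer NDUFV3 probe set went the other way, at 7.53, 7.59 and 7.57 in shCPT-2, against 7.71, 7.63 and 7.69 in shCPT-1. On the dimmer UQCR11 probe set the arrays of the knockdowns overlapped, so the values of both genes depend on the probe set. The call of CYC1 ended without array 3 of shCPT-1 (0.0515), and that of NDUFB7 without array 1 of shCPT-1 or array 2 of shCPT-2 (up to 0.0612). The count of those higher depended on the arrays. It was 15 without the 4 arrays that correlated least with their groups (where 22% of all tested genes were higher). With the actin covariate it was 6 (21.1%), and without scramble 3 it was 5 (19.2%). It was 15 with array weights and 5 without array 1 of shCPT-1, fits whose shares of all tested genes are not given here. The counts of those lower were 20 without the 4 arrays and 22 with the covariate, beside 21.8% and 20% of all tested genes. NDUFV2, NDUFA8, NDUFA13, NDUFB7 and NDUFB11 were chosen for naming after their values were seen.

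**Figure D5:**
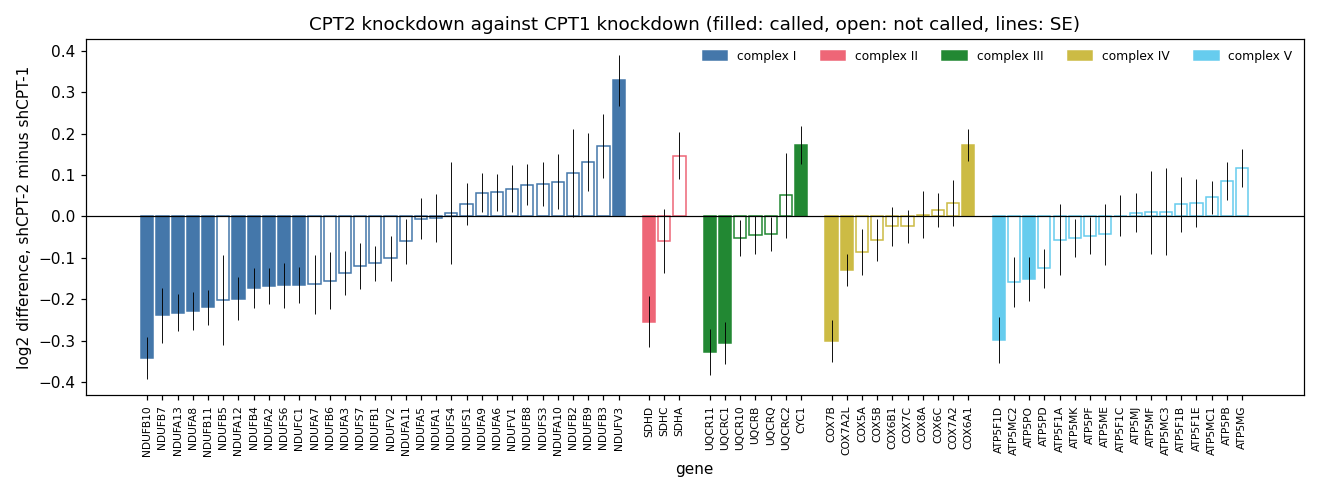
Log2 difference of shCPT-2 minus shCPT-1 for each of the 69 subunit genes, ordered within each complex; filled bars passed the limma test, open bars did not, and lines are the SE. In complex I 10 bars below 0 are filled and 1 above, NDUFV3 at 0.33 on its brightest probe set. NDUFB10 is the lowest at -0.34.

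Set against ETX, shCPT-1 had 15 members higher and 10 lower, where 22.9% and 19.8% of all tested genes were, and complex I held 12 of the 15. The largest were NDUFA8 (0.37 ± 0.05, adjusted p = 3e-05) and NDUFV2 (0.37 ± 0.06, 0.00016), and the lowest was NDUFV1 (-0.41 ± 0.06, 8.5e-05). In shCPT-2 relative to ETX, 7 members were higher and 11 lower, where 24.9% and 20.9% of all tested genes were. The lowest were COX7B (-0.57 ± 0.05, adjusted p = 2e-06), SDHD (-0.51 ± 0.06, 2.6e-05) and NDUFV1 (-0.34 ± 0.06, 0.000303), and the highest was SDHA (0.33 ± 0.06, 0.000394). COX8A was 0.29 lower in each knockdown than with ETX. The shCPT-2 count of members higher than with ETX was 4 without ETX 2 and 3 without array 3 of shCPT-2, and the shCPT-1 count of those lower was 6 without ETX 3 or without array 2 of shCPT-1. Shares of all tested genes in these fits are not given here.

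The subunits outside the naming pattern were read from a list of 8 genes, of which 2 rose and 2 fell with ETX, 2 rose and 0 fell in shCPT-1 (1 fell at an unadjusted p under 0.05), and 3 rose and 2 fell in shCPT-2, all by limma, where 21.9% and 19.4%, 23.1% and 18%, and 25.6% and 20.5% of all tested genes did. NDUFAB1, the acyl carrier protein that sits in complex I and serves mitochondrial fatty acid synthesis, rose in all 3, by 0.64 in ETX, 0.57 in shCPT-1 and 0.71 in shCPT-2 (adjusted p of 0.00151, 0.00271 and 0.000462), and had 0.39, 0.30 and 0.40 with the actin covariate. COX4I1, the main form of the largest nuclear-encoded subunit of complex IV, was lower in ETX (-0.21, adjusted p = 0.00285) and higher in shCPT-1 (0.19, 0.00386) and in shCPT-2 (0.22, 0.00114). COXFA4L3, a relative of the complex IV subunit COXFA4, had a log2 difference of -2.12 in shCPT-2 (adjusted p = 4.83e-09), with -0.31 in ETX (0.018) and -0.21 in shCPT-1 (0.0913). ATP5IF1, the inhibitor of ATP synthase, fell in shCPT-2 (-0.28, adjusted p = 0.000936). These genes, and those named from the lists that follow, were picked from their lists after their values were seen.

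Of 55 assembly factors tested, 19 rose and 9 fell with ETX (34.5% and 16.4%), 24 rose and 12 fell in shCPT-1 (43.6% and 21.8%), and 23 rose and 14 fell in shCPT-2 (41.8% and 25.5%). Of all tested genes, 21.9% rose and 19.4% fell with ETX, 23.1% and 18% did so in shCPT-1, and 25.6% and 20.5% in shCPT-2. The median log2 difference of the assembly factors was 0.05, 0.08 and 0.13, beside -0.01, 0.01 and 0.00 over all tested genes. SCO1, a copper chaperone of complex IV, rose by 0.35 in ETX, 1.05 in shCPT-1 and 1.07 in shCPT-2. COX10, which acts in making haem A for the same complex, rose by 0.92 in shCPT-1 and 0.73 in shCPT-2, with 0.04 in ETX. TIMMDC1, a membrane factor of complex I assembly, rose in all 3, by 0.67, 0.82 and 0.75, and had 0.41, 0.54 and 0.43 with the actin covariate, each still called. NDUFAF3 and FOXRED1, also of complex I assembly, fell in all 3, by 0.21, 0.18 and 0.41 and by 0.21, 0.26 and 0.34. Of 17 genes for electron carriers and ubiquinone synthesis, 3 rose and 4 fell with ETX (17.6% and 23.5%), 7 rose and 1 fell in shCPT-1 (41.2% and 5.88%), and 5 (29.4%) rose and 0 fell in shCPT-2 by limma (1 fell at an unadjusted p under 0.05), to be read against the same shares of all tested genes. ETFDH, which passes electrons from fatty acid oxidation to ubiquinone, rose by 1.02 in ETX and 0.57 in shCPT-1, with 0.13 in shCPT-2 (adjusted p = 0.246). ETFA, a subunit of its electron donor, rose by 0.76 in ETX, with 0.28 in shCPT-1 (adjusted p = 0.0502) and 0.24 in shCPT-2 (0.079). COQ3, a methyltransferase of ubiquinone synthesis, rose by 0.57 in shCPT-1 and 0.35 in shCPT-2, with -0.10 in ETX.

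Of 16 regulators of mitochondrial gene expression, 5 rose and 3 fell with ETX (31.2% and 18.8%), 3 rose and 2 fell in shCPT-1 (18.8% and 12.5%), and 8 rose and 3 fell in shCPT-2 (50% and 18.8%), where 21.9% and 19.4%, 23.1% and 18%, and 25.6% and 20.5% of all tested genes did. MYC rose in all 3, by 1.20, 0.71 and 1.07, as did TFB2M, a factor of mitochondrial transcription, by 0.43, 0.45 and 0.54, and GABPA, by 0.30, 0.28 and 0.21. PPARGC1A, the coactivator PGC-1 alpha, rose with ETX (0.57, adjusted p = 4.2e-05) and had 0.00 in shCPT-1 and -0.08 in shCPT-2. POLRMT, the mitochondrial RNA polymerase, fell with ETX (-0.46), and HIF1A fell in shCPT-2 (-1.12, adjusted p = 5.06e-07). ESRRA fell in both knockdowns (-0.21 and -0.19). Of 5 uncoupling proteins and carriers tested, 1 rose and 1 fell with ETX, 1 rose and 1 fell in shCPT-1, and 2 rose and 2 fell in shCPT-2, to be read against the same shares of all tested genes. SLC25A5, an ADP/ATP carrier that supplies complex V, rose in all 3 (0.45, 0.38 and 0.39), and UCP2, an uncoupling protein of the inner membrane, fell with ETX (-0.35) and in shCPT-2 (-0.27). Among the genes named from these lists, calls that ended without 1 array were those of COXFA4L3 in ETX (scramble 2 or ETX 2, adjusted p up to 0.0606), SCO1 in ETX (scramble 1, scramble 2 or ETX 3, up to 0.0738) and NDUFAF3 in ETX (scramble 2 or ETX 1, up to 0.0695). Those of NDUFAF3 in shCPT-1 (up to 0.141) and GABPA in shCPT-2 (up to 0.127) each ended without any 1 of 6 arrays, among them scramble 1, scramble 2 and array 1 of the knockdown. Each call of SLC25A5 ended without scramble 1 or scramble 2 (up to 0.134), and in the knockdowns also without array 1 of the knockdown or array 3 of shCPT-2. With the actin covariate its differences were 0.19, 0.105 and 0.07, none called. The covariate also ended the calls of COXFA4L3 (-0.32, adjusted p = 0.0522), SCO1 (0.17, 0.128) and FOXRED1 (-0.14, 0.0703) in ETX, of NDUFAF3 in ETX (-0.14, 0.109) and shCPT-1 (-0.10, 0.246), of GABPA in shCPT-1 (0.26, 0.0553) and shCPT-2 (0.19, 0.166), and of ESRRA in shCPT-2 (-0.13, 0.104). MYC kept its calls with it, at 0.83, 0.32 and 0.63, and POLRMT in ETX had -0.31.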

How the data were processed

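The deposited values are 1 linear intensity per probe set and array (54675 probe sets, 62 of them controls), made with RMA per the submitters' processing notes, whose settings and version the sources used here do not give. The log2 of each intensity was taken. Probe sets brighter than the median of their array on 3 or more of the 12 arrays were used (28630, of which 23565 carry 1 symbol), and for each gene the one with the highest mean was taken (12887 genes). Levels are compared within a probe set only, and the number of arrays limits the precision.

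The model was limma 3.58.1 (R 4.3.3, with data.table in version 1.17.8), fitted with lmFit and eBayes to all 12 arrays without a covariate (8 residual and 4.117 prior degrees of freedom). Tests were two-sided, with Benjamini-Hochberg adjustment over all tested genes of a comparison, and "called" means an adjusted p under 0.05. Errors of differences are SE, and the test over probe sets is the same fit on all 28630. The fit was tested on simulated data. With 3 arrays a group the smallest exact permutation p is 0.1. Symbols come from the platform's annotation, and promoters from RefSeq. Plots used matplotlib 3.10.9 with pandas 2.3.3 and numpy 2.4.6 under Python 3.11.15.

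Named genes are, per comparison with scramble and complex, up to 3 called members with the largest difference in each direction whose groups do not overlap, every member called in all 3 comparisons, a set of core subunits and tissue-restricted forms, and members with probe sets called opposite ways. The members, lists, alternatives and naming rule were chosen with earlier results of these data known, and the list of mitochondrial genome transcripts was added later. Same-numbered arrays did not pair: of 18 pairs, 8 correlated above 0.1 (range -0.457 to 0.327). Alternatives were no filter or a 25th percentile filter, averaging the probe sets of a gene, unique probe sets only, quantile normalization again, median centring, eBayes with trend, only the groups compared, array weights, the actin covariate, a replicate block, and leaving out arrays.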

Additional observations from a re-analysis of the deposited data

How the results depend on the processing

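Counts of subunit genes are given higher and lower. With the replicate block they were 11 and 10 in ETX, 16 and 11 in shCPT-1 and 14 and 17 in shCPT-2, 15 and 7 for shCPT-1 minus ETX, 6 and 10 for shCPT-2 minus ETX and 3 and 16 for shCPT-2 minus shCPT-1, with 44 differing among the 4 groups, so the block moved no count by over 1.5 times; 3 of 12 arrays correlated best with their own number. Without probe sets that may bind several transcripts, ETX had 7 and 6, shCPT-1 8 higher, shCPT-2 6 higher, shCPT-1 minus ETX 6 higher, shCPT-2 minus shCPT-1 7 lower, and 28 genes differed among the groups; fewer genes were tested there. Quantile normalization again gave 7 higher in ETX and 5 higher for shCPT-2 minus shCPT-1, eBayes with trend also gave 5 higher for shCPT-2 minus shCPT-1, and only the groups compared 7 higher in ETX. Array weights gave 19 and 22 in ETX, 28 and 17 in shCPT-1, 14 higher for shCPT-2 minus ETX, and 15 and 27 for shCPT-2 minus shCPT-1. The actin covariate gave 6 higher in ETX, 7 and 12 in shCPT-2 and 6 higher for shCPT-2 minus shCPT-1. Without the 4 arrays least like their groups there were 17 and 18 in ETX, 11 higher for shCPT-2 minus ETX and 15 higher for shCPT-2 minus shCPT-1. In the same order, 26.1% and 26.8%, 29.3% and 22% of all tested genes were called there. Leaving out each array in turn gave 7 to 14 and 6 to 13 in ETX, 11 to 24 and 9 to 13 in shCPT-1, 9 to 18 and 13 to 19 in shCPT-2, 10 to 17 and 6 to 10 for shCPT-1 minus ETX, 3 to 7 and 9 to 12 for shCPT-2 minus ETX, 2 to 5 and 14 to 20 for shCPT-2 minus shCPT-1, and 40 to 49 among the groups. The lowest counts came without scramble 1 (7 higher and 7 lower in ETX, 11 higher in shCPT-1, 9 higher in shCPT-2), scramble 2 (7 higher in ETX, 11 higher in shCPT-1), ETX 1 (7 and 6) and ETX 2 (7 and 7). Without scramble 3, ETX had 14 and 10, shCPT-1 24 and 11, and shCPT-2 18 and 19. Of all tested genes, 22.8% and 20.5%, 24.3% and 18.9%, and 26.2% and 20.9% were called in that fit. Shares of all tested genes are not given for the other single arrays, array weights, the replicate block or the remaining alternatives. Those counts cannot show whether the members changed more than all genes did. In single genes, NDUFS1 in shCPT-2 became -0.198 as the mean of its probe sets, and NDUFV3 and UQCR11 in shCPT-2 became -0.204 and 0.0486 without probe sets that may bind several transcripts, which leaves their dimmer ones. Of 1681 values of 68 called results of named genes, 1487 kept their direction and call, 193 kept the direction only and 1 turned, and 34 results kept both throughout. Where not stated, the cause was not tested.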

Other observations

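Probe sets with several symbols, left out by the rule, hold 4 further subunits. NDUFS8, an iron-sulfur subunit of complex I whose probe sets also name MIR7113 and MIR4691, fell on all 3 of them: its brightest had -0.37 ± 0.05 (SE) in ETX (limma adjusted p over probe sets = 0.000289), -0.35 ± 0.05 in shCPT-1 (0.000212) and -0.67 ± 0.05 in shCPT-2 (1.01e-06). NDUFC2, shared with the read-through NDUFC2-KCTD14, fell by 0.30 ± 0.07 in shCPT-1 (adjusted p = 0.00579) and 0.29 ± 0.07 in shCPT-2 (0.00555), with 0.06 in ETX (0.558), on its brighter probe set. UQCRH (with UQCRHL) had 0.06, 0.05 and 0.07, and NDUFS5 (with RPL10) -0.15, -0.11 and -0.14 in ETX, shCPT-1 and shCPT-2, none of which passed the test.

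Of 6 transcripts of the mitochondrial genome with a tested value, which supply core subunits of complexes I and IV, 0 rose and 0 fell with ETX (limma, adjusted p under 0.05, and also 0 at an unadjusted p under 0.05). In shCPT-1 COX1 fell (-0.14, adjusted p = 0.0439), a call that ended without any 1 of 8 arrays (up to 0.14), and in shCPT-2 ND6 rose (0.42, adjusted p = 0.0023). The other values lay between -0.19 and 0.02.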
